A study of Caenorhabditis elegans with 7 samples.

Results

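The mitochondrial route that burns pyruvate was followed here through 10 genes, which encode the α and β subunits of pyruvate dehydrogenase, dihydrolipoamide dehydrogenase and 7 enzymes of the tricarboxylic acid (TCA) cycle. They were named for their place in this route, and the array probes whose sequence name or RefSeq accession belonged to one of these symbols were taken. This gave 29 of the 43603 probes that are not controls, and 10 of the 14224 genes tested. All 29 probes were well above background on every array.

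Pyruvate from glycolysis enters the mitochondrion and is converted to acetyl-CoA by the pyruvate dehydrogenase complex, in which an α and a β subunit form the first enzyme (E1) and dihydrolipoamide dehydrogenase is the third (E3). The TCA cycle then oxidizes the acetyl group step by step and passes its electrons to the respiratory chain as NADH and reduced flavin. Body wall muscle, germline and intestine of the worm all carry mitochondria, and the enzymes named here are encoded in the nucleus.

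RNA came from whole wild-type (N2) *C. elegans* given 25 μM tomatidine, a steroidal alkaloid of unripe tomatoes, or 1% DMSO vehicle from the last larval stage and collected on adult day 7. Each of 7 arrays carried Cy3-labeled cRNA in a single color, 3 arrays from tomatidine-treated and 4 from vehicle-treated worms, and the control label reads untreated in one place and names the DMSO vehicle in another. Nothing but the compound was stated to differ between the groups. By the methods, 3 preparations were hybridized singly, and equal parts of them were pooled for a 4th hybridization. Only the vehicle group has 4 arrays here, and the labels do not identify a pooled array. The arrays may therefore not be independent, and p values measure only the spread between these arrays.

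Values are log2 intensities, brought to the same mean and spread on every array, and the brightest probe stands for its gene. A level of one probe cannot be set against that of another, so each gene was compared with itself across arrays. In whole worms, fewer cells of a type and less RNA per cell cannot be told apart. Of 43 genes listed as markers of 7 tissues, 41 were tested and 36 were well above background on all 7 arrays. Markers of intestine, muscle, pharynx, neurons and germline were all above background throughout, as were 3 of 5 of the hypodermis but only 1 of 6 of sperm.

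None of the 10 enzyme genes passed a test between tomatidine-treated and vehicle-treated worms. In limma, 0 of 10 passed an adjusted p of 0.05 in either direction, beside 11 of all 14224 genes (0.0773%) that were higher and 0 (0%) that were lower. At an unadjusted p under 0.05, 0 of the 10 were called, beside 174 of all genes (1.22%). The methods of the study score a gene by its z-ratio, which divides the gap between group means of z-scores by the SD of such gaps over all genes, and set a cut-off of 1.5 in either direction together with a false discovery rate whose test is not named. By the cut-off alone, which is not the full rule of the study, 0 of 10 were called, beside 1276 of all genes (8.97%), and the 10 z-ratios lay between -0.33 and 0.84. For all 10 genes the tomatidine and vehicle arrays overlapped, whereas they did not overlap for 296 of all genes (2.08%).

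The estimates lay close to 0. The log2 fold changes of tomatidine over vehicle ran from -0.09 to 0.23 with standard errors of 0.21 to 0.33, and 4 of 10 were above 0. Their median was -0.0046, and that of all genes tested was -0.03. The adjusted p in limma was 0.9998 for every one of the 10. A missed threshold does not show that the levels were equal, and the intervals give the changes that stay compatible with these arrays in the unpaired fit. All 10 intervals at 95% spanned 0, and together they reached from 0.599-fold to 1.63-fold of the vehicle level.

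**Figure D1:**
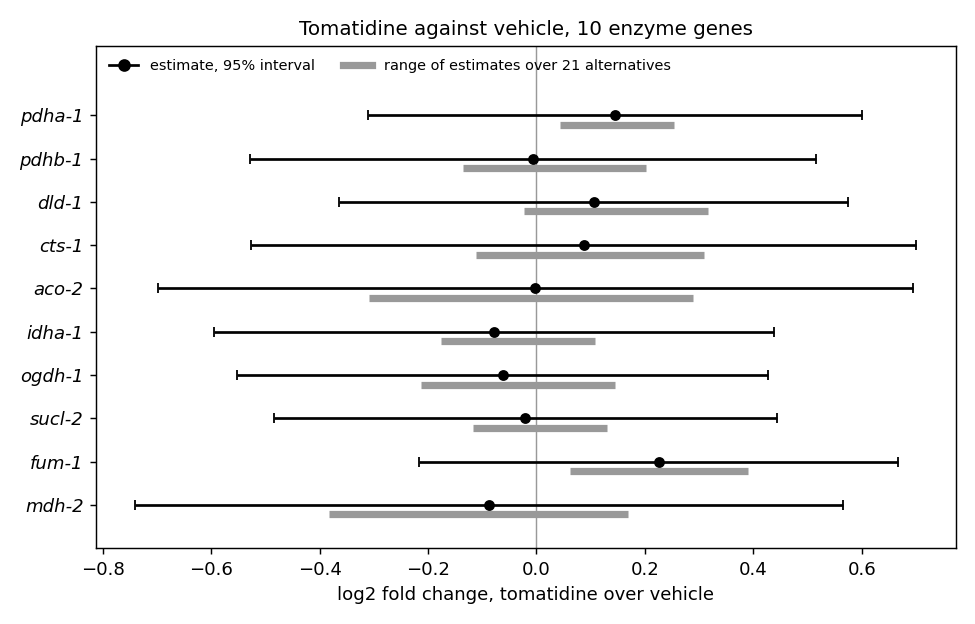
Log2 fold change of tomatidine over vehicle (horizontal axis) for each of the 10 enzyme genes, with the 95% interval from limma as a thin bar and, in grey, the range of the estimate over 21 alternative settings. All 10 thin bars cross 0, and only the grey bars of *pdha-1* and *fum-1* lie wholly above it.

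At the entry to the cycle, *pdha-1* encodes the catalytic α subunit of pyruvate dehydrogenase. It stood at 15.38, 15.05 and 15.09 on tomatidine replicates 1 to 3, against 14.85, 15.19, 15.10 and 14.97 on vehicle replicates 1 to 4. Tomatidine replicate 1 was the highest of the 7 arrays and vehicle replicate 1 the lowest, with the other 5 interleaved. The log2 fold change was 0.15 (95% interval -0.31 to 0.60, exact permutation p = 0.4), and of the 10 genes this was the one with the least spread within groups, a pooled SD of 0.16 in log2.

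*pdhb-1* (C04C3.3), the β subunit that pairs with it, had 14.06, 13.71 and 13.65 on the tomatidine arrays, against 13.44, 14.44, 13.59 and 13.79 on the vehicle arrays. Here vehicle replicate 2 was highest and vehicle replicate 1 lowest, so that the vehicle group enclosed all 3 tomatidine values. Its log2 fold change was -0.0067 (95% interval -0.53 to 0.52, exact permutation p = 0.971). A second probe of *pdhb-1* gave -0.24 with a standard error of 0.27.

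*dld-1* (LLC1.3) encodes the E3 flavoprotein that reoxidizes the lipoyl arms of the pyruvate, 2-oxoglutarate and branched-chain keto acid complexes and of the glycine cleavage system. Its values were 13.34, 13.24 and 12.66 in tomatidine-treated worms, against 12.90, 13.34, 12.91 and 12.75 in vehicle-treated worms. Tomatidine replicate 3 lay below every vehicle array and tomatidine replicate 1 level with the highest of them. For *dld-1* the estimate was a log2 fold change of 0.11 (95% interval -0.36 to 0.58, exact permutation p = 0.743). On the second probe of *dld-1*, the tomatidine arrays read 12.65, 12.43 and 12.35 and the vehicle arrays 12.13, 12.09, 12.47 and 12.05, and only vehicle replicate 3 reached into the tomatidine range. That probe had a log2 fold change of 0.29 (SE 0.20), the highest of all 29, and an unadjusted p of 0.164 in limma's fit over all probes, the lowest of the 29.

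Citrate synthase, *cts-1* (T20G5.2), joins acetyl-CoA to oxaloacetate. It gave 17.24, 16.40 and 16.88 on the tomatidine arrays, against 16.53, 17.01, 16.68 and 16.78 on the vehicle arrays. The highest and the lowest array were both of tomatidine-treated worms, replicates 1 and 2, and the vehicle values lay between them. This gave a log2 fold change of 0.09 (95% interval -0.53 to 0.70, exact permutation p = 0.743), while the second probe of *cts-1* had -0.08 with an SE of 0.30.

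*aco-2* (F54H12.1), the mitochondrial aconitase that turns citrate into isocitrate, varied most of the 10. Tomatidine arrays read 14.67, 13.50 and 13.99, against 13.72, 14.93, 13.58 and 13.99 on vehicle arrays. One array in each group, tomatidine replicate 1 and vehicle replicate 2, stood well above its fellows. The groups averaged 14.05 ± 0.59 (SD, n = 3) with tomatidine and 14.06 ± 0.61 (SD, n = 4) with vehicle. The fitted log2 fold change was -0.0025 with the widest standard error of the 10, 0.33 (95% interval -0.70 to 0.69, exact permutation p = 0.971).

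The α subunit of NAD-dependent isocitrate dehydrogenase is *idha-1* (F43G9.1), which makes 2-oxoglutarate and the first NADH of the cycle. Levels of 14.75, 14.56 and 14.35 were measured with tomatidine, against 14.38, 15.19, 14.61 and 14.34 with vehicle. All 3 tomatidine values fell inside the vehicle range, whose upper end was vehicle replicate 2 alone. A log2 fold change of -0.08 followed (95% interval -0.59 to 0.44, exact permutation p = 0.857), and the other 3 probes of *idha-1* ran from -0.05 to 0.14.

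*ogdh-1* (T22B11.5) encodes the E1 subunit of the 2-oxoglutarate dehydrogenase complex, which uses *dld-1* as its E3. Tomatidine arrays had 12.50, 12.32 and 11.91, against 12.45, 12.73, 12.19 and 11.86 on vehicle arrays. These tomatidine values again lay within the vehicle range, and vehicle replicates 2 and 4 marked its ends. Between the groups, the log2 fold change was -0.06 (95% interval -0.55 to 0.43, exact permutation p = 0.857).

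Next in the cycle, *sucl-2* (F23H11.3) encodes an α subunit of succinyl-CoA ligase, which makes nucleoside triphosphate from succinyl-CoA. Its 13.85, 13.79 and 13.65 with tomatidine compared with 13.53, 14.23, 13.50 and 13.88 with vehicle. The tomatidine arrays were tight, with an SD of 0.10, and sat inside a vehicle range set by replicates 2 and 3. The log2 fold change was -0.02 (95% interval -0.48 to 0.44, exact permutation p = 1).

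Fumarase, *fum-1*, hydrates fumarate to malate and had the highest log2 fold change of the 10. Tomatidine arrays read 14.57, 14.24 and 13.91, against 14.09, 14.03, 14.00 and 13.93 on vehicle arrays. Tomatidine replicates 1 and 2 lay above all 4 vehicle arrays and tomatidine replicate 3 below all 4. The vehicle arrays were close to each other, at 14.01 ± 0.07 (SD, n = 4), while the tomatidine arrays averaged 14.24 ± 0.33 (SD, n = 3). The log2 fold change of 0.23 (95% interval -0.22 to 0.67) did not pass in limma (adjusted p = 0.9998) or by itself (exact permutation p = 0.286, where the smallest p that 3 against 4 arrays allow is 0.0571, two-sided).

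Which arrays carried high *fum-1* signal depended on the signal used. With the median signal of the spots in place of the processed signal, after normexp background correction and quantile normalization, its deviations from its own mean were -0.12, 0.44 and 0.32 on the tomatidine arrays, against -0.29, 0.04, -0.58 and 0.20 on the vehicle arrays. There tomatidine replicate 1 was the lowest of its group, as it was with the raw median signal (-0.09, against 0.39 and 0.27 on the other tomatidine arrays), whereas on the processed signal it was the highest with z-scores and with a 75th percentile shift (0.28, against 0.25 and -0.09). The log2 fold change of *fum-1* stayed above 0 in all 21 alternative settings, between 0.06 and 0.39. Those of *pdha-1* lay between 0.04 and 0.25 and were also above 0 in 21 of 21, and for each of the other 8 genes at least 1 setting turned the sign. The settings reuse the same arrays, and those that change only the variance trend, the filter or the test left these estimates as they were. The counts are therefore not independent support.

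Malate dehydrogenase, *mdh-2* (F20H11.3), closes the cycle by making oxaloacetate again. It stood at 16.53, 15.81 and 15.48 on the tomatidine arrays, against 15.68, 16.53, 16.16 and 15.75 on the vehicle arrays. Tomatidine replicate 1 and vehicle replicate 2 were the highest and tomatidine replicate 3 the lowest. The log2 fold change was -0.09 (95% interval -0.74 to 0.57, exact permutation p = 0.857), the lowest of the 10.

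**Figure D2:**
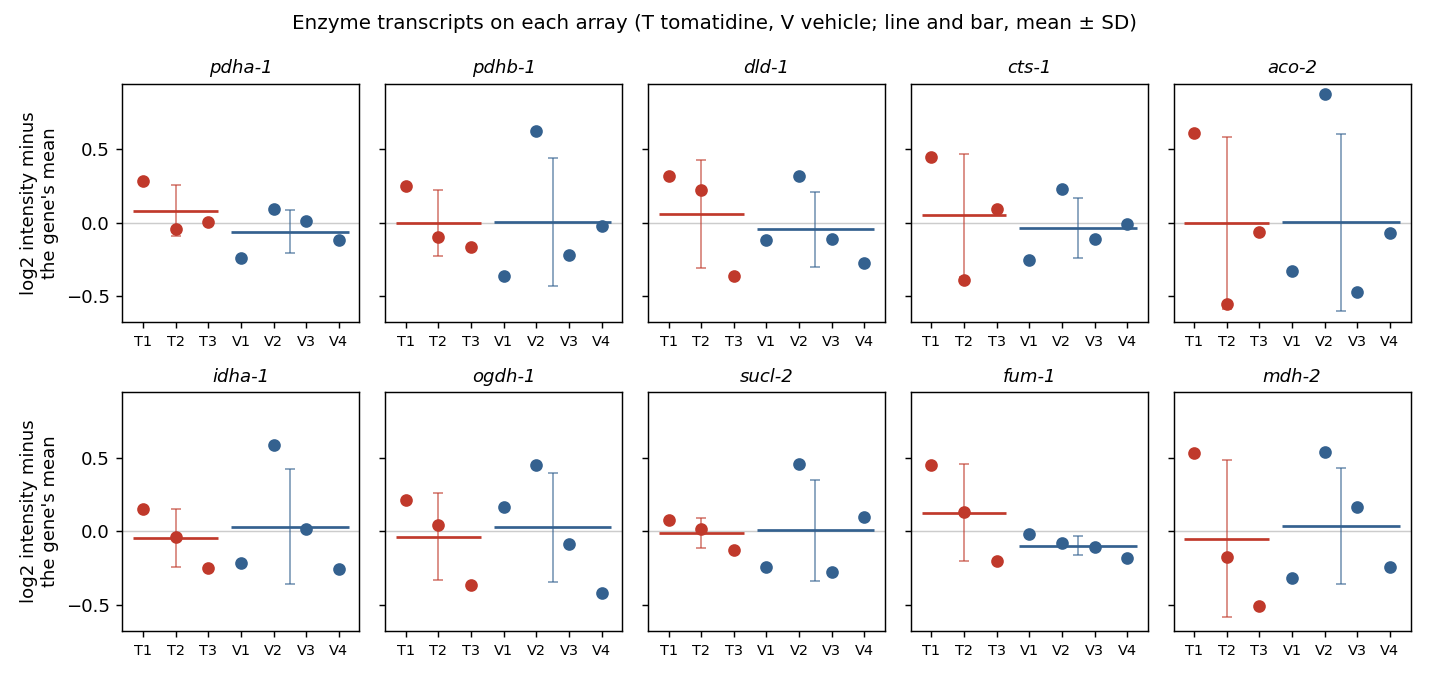
Each panel plots 1 enzyme gene on the 7 arrays (T, tomatidine replicates 1 to 3; V, vehicle replicates 1 to 4), as log2 intensity minus the mean of that gene over all arrays. Horizontal lines and bars are group means and SDs. T1 is the highest tomatidine point in all 10 panels and V2 the highest vehicle point in 9, the exception being *fum-1*.

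The panels of single genes share a pattern between arrays rather than between groups. Tomatidine replicate 1 had the highest tomatidine value for 10 of 10 genes, and vehicle replicate 2 the highest vehicle value for 9 of 10. The share of all genes tested with this order was not counted. Averaged over the 10 genes, the deviation from each gene's own mean was 0.34, -0.09 and -0.19 on tomatidine replicates 1 to 3, against -0.19, 0.41, -0.12 and -0.15 on vehicle replicates 1 to 4. One raised array in each group thus offset the other, and it was the same pair of arrays for most genes. These arrays share a tag in the sample labels, which joins tomatidine replicates 1, 2 and 3 with vehicle replicates 2, 3 and 4, and the p values and intervals above make no use of it. Across the 7 arrays all 45 pairs of genes had a correlation above 0, with a median r of 0.62 and a range of 0.12 (*sucl-2* with *fum-1*) to 0.94 (*pdhb-1* with *sucl-2*). These are a description, since all pairs share the same 7 arrays and their background.

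The raised arrays also stood apart in their background. The net signal of negative control spots was 237.2 on tomatidine replicate 1 and 424.4 on vehicle replicate 2, and between 75.1 and 114.4 on the other 5 arrays. The share of probes well above background was 57.1% and 52.9% on these arrays, against 60.5% to 69.7% elsewhere. Vehicle replicate 2 was in addition the one array whose header records no multiplicative detrending and a background fit outside the software's range. Other genes of like intensity, 4058 in number, deviated by 0.11 on tomatidine replicate 1 and by 0.21 on vehicle replicate 2, less than the enzyme genes did, and by 0.12 on vehicle replicate 3, where the enzyme genes had -0.12. Of the 4058, 66.3% lay above their own mean on tomatidine replicate 1, 76.5% on vehicle replicate 2 and 70.7% on vehicle replicate 3. Of the 10 enzyme genes, 10, 9 and 3 did so.

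The size of the offset moved with the scaling and the signal used. A shift of each array to its 75th percentile gave the enzyme genes a mean deviation of 0.16 on tomatidine replicate 1 and 0.06 on vehicle replicate 2. On the median signal, normexp with quantile normalization gave 0.13 and 0.21 on the same arrays, and z-scores of the raw median signal gave 0.31 and 0.35. Vehicle replicate 2 was therefore raised most by z-scores of the processed signal and least by the percentile shift. The part of the background in these levels was not tested. Marker genes of body wall muscle summed to 40914.9 to 77848 on the scaled intensity in tomatidine-treated worms and to 38325 to 76109.3 in vehicle-treated worms, and the upper end in each group was again tomatidine replicate 1 and vehicle replicate 2. Of the 7 tissue lists, the sum was highest on tomatidine replicate 1 among tomatidine arrays for 6, the exception being sperm, and on vehicle replicate 2 among vehicle arrays for 4. It was highest on vehicle replicate 3 for intestine and germline, and for sperm vehicle replicate 2 was the lowest. Such sums weigh the brightest genes most, in intestine *vit-5* and in germline *cpg-1* and *cpg-2*, whose top vehicle value was on replicate 3. Vehicle replicate 2 was the top vehicle array for *vit-2*, *vit-6*, *elt-2*, *asp-1*, *cpr-6*, *pgl-1*, *pgl-3*, *gld-1*, *puf-5* and *cbd-1*. For *ges-1* it was replicate 4 and for *glp-1* replicate 1. The sperm marker detected on all arrays, *msp-31*, had its highest tomatidine value on replicate 1 and its lowest vehicle value on replicate 3. The 6 muscle markers were all detected, 0 of them passed the test, and their part in the result was not tested.

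**Figure D3:**
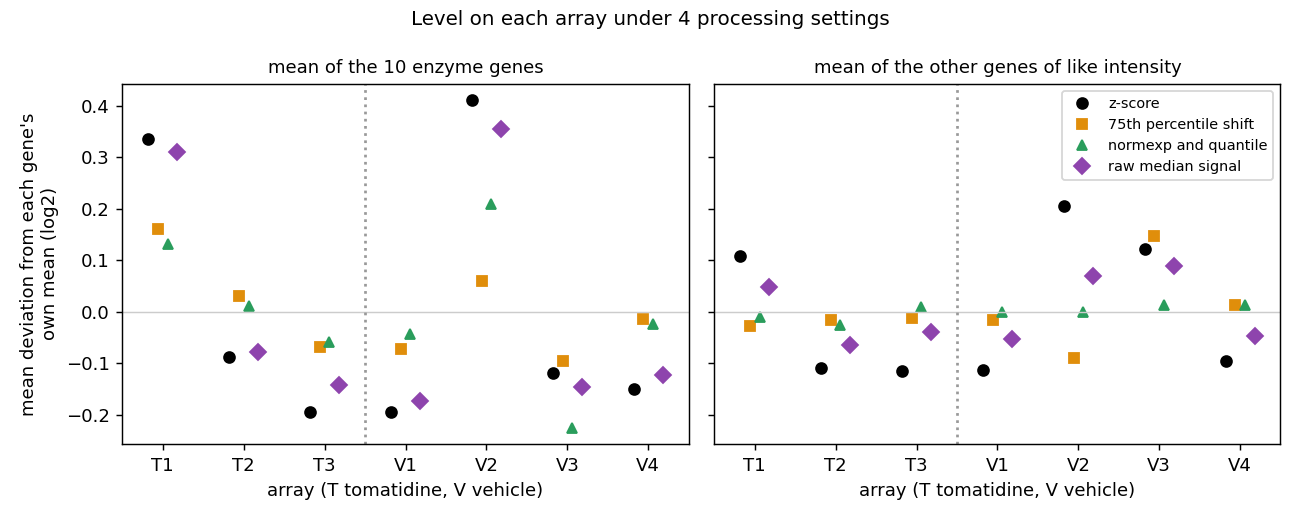
Mean deviation from each gene's own mean (log2, vertical axis) on the 7 arrays under 4 processing settings, for the 10 enzyme genes (left) and for the 4058 other genes of like intensity (right). On the left, T1 and V2 reach 0.34 and 0.41 with z-scores, and V2 falls to 0.06 with the 75th percentile shift.

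The direction of the group depended on the arrays included. Without tomatidine replicate 1, the median log2 fold change of the 10 genes was -0.12, with 2 of 10 above 0. Without vehicle replicate 2 it was 0.19, with 10 of 10 above 0. The medians of all genes tested were 0.0044 and -0.03 in these settings. Without tomatidine replicate 3, the median of the 10 genes was 0.09, also with 10 of 10 above 0. That setting keeps both arrays of high background, and their part in it was not tested. Without both tomatidine replicate 1 and vehicle replicate 2, it was 0.04 with 6 of 10 above 0. In each of these settings 0 of the 10 genes passed the test.

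Taken as differences within the 3 tag pairs, the 10 genes had medians of -0.12, 0.04 and -0.01 in the pairs of tomatidine replicates 1, 2 and 3. Only *mdh-2* was below 0 in all 3 pairs, at -0.0033, -0.35 and -0.27, and 0 of 10 were above 0 in all 3. For *mdh-2* this held on its brightest probe and on no other of its probes. On 1 of those the tomatidine array was the higher in all 3 pairs, at 15.92, 15.43 and 15.04 against 15.72, 15.41 and 15.01. With the tags as a block in limma, the standard errors narrowed to between 0.18 and 0.19. Vehicle replicate 1 has no tag and forms a block of its own, so these estimates equal those without it. They too rest on the brightest probe of each gene. *mdh-2* then had a log2 fold change of -0.21 (SE 0.19) and *aco-2* one of -0.11 (SE 0.18, against 0.33 without the block), and 0 of 10 passed, with a lowest adjusted p of 0.988.

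The arrays lay on 2 slides, and each slide held both groups. On the slide with tomatidine replicate 1 and vehicle replicates 1, 2 and 3, the difference of tomatidine from vehicle had a median of 0.31 and was above 0 for 10 of 10 genes, from 0.02 for *idha-1* to 0.59 for *aco-2*. On the other slide, with tomatidine replicates 2 and 3 and vehicle replicate 4, the median lay at 0.00, with 5 of 10 above 0, from -0.24 for *aco-2* to 0.26 for *ogdh-1*. The medians of all genes tested were -0.06 and -0.08 on these slides. *aco-2* thus had the highest difference on one slide and the lowest on the other. The values on the first slide rest on tomatidine replicate 1 alone and those on the second on vehicle replicate 4 alone, so neither slide allows a test. With the slide as a block, the median was 0.18 and 9 of 10 genes were above 0, and 0 of 10 passed limma's test.

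To see whether any step moved against the rest of the route, each gene was set against the mean of the other 9 on the same array, a comparison chosen after seeing the data. The shift between arrays common to the 10 genes drops out of this measure. The differences of tomatidine from vehicle ran from -0.13 for *mdh-2* to 0.22 for *fum-1*, and all 10 groups still overlapped. For *fum-1*, the pooled SD of this relative level was 0.26, larger than the difference. For *pdhb-1* the spread within groups narrowed to 0.16, against 0.37 for its own level, and its difference was -0.04. For *idha-1* it narrowed to 0.14, against 0.33, with a difference of -0.12. Over the other genes tested, 49 (0.345%) lay wholly higher and 133 (0.936%) wholly lower with tomatidine on a level relative to the mean of the 10.

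Of the 10 genes, 6 had more than 1 probe, and each probe was compared on its own in a fit over all probes. Over the 29 probes, the log2 fold changes ran from -0.24 to 0.29 with a median of 0.09, and 18 were above 0. For *mdh-2*, the brightest of 6 probes had -0.09 and the other 5 had 0.02 to 0.24, so the sign of its value depended on the probe. Tomatidine replicate 1 was the highest tomatidine array for 25 of the 29 probes and vehicle replicate 2 the highest vehicle array for 22.

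The probes of *aco-2* fell into those named for transcript F54H12.1a and those named for F54H12.1c. The 5 F54H12.1a probes had log2 fold changes of -0.06 to 0.14, with 2 above 0, and the 4 F54H12.1c probes had 0.10 to 0.28, with 4 above 0. Vehicle replicate 2 exceeded the mean of the other vehicle arrays by 0.95 over the F54H12.1a probes and by 0.19 over the F54H12.1c probes. Tomatidine replicate 1 exceeded the other tomatidine arrays by 0.69 and by 0.32 over the same probes. On average, the raised signal on these arrays was thus larger for the F54H12.1a probes than for the F54H12.1c probes. The dimmest F54H12.1a probe was not raised on vehicle replicate 2, at 10.36 against 10.22, 10.69 and 10.38 on the other vehicle arrays. The remaining F54H12.1a probes were brighter than all F54H12.1c probes, so the sets differ in intensity as well as in name. The difference between the sets was not tested.

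On 1 of the 29 probes the groups did not overlap. This F54H12.1c probe of *aco-2*, the dimmest of its 4, read 11.001, 11.05 and 11.17 with tomatidine, against 10.61, 10.78, 10.81 and 10.96 with vehicle. Its log2 fold change was 0.28 (SE 0.20, unadjusted p = 0.176 in limma's fit over all probes). Among all 43517 probes, 344 (0.79%) lay wholly higher and 363 (0.834%) wholly lower with tomatidine. A single probe among 29 is too small a count to set against these shares.

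**Figure D4:**
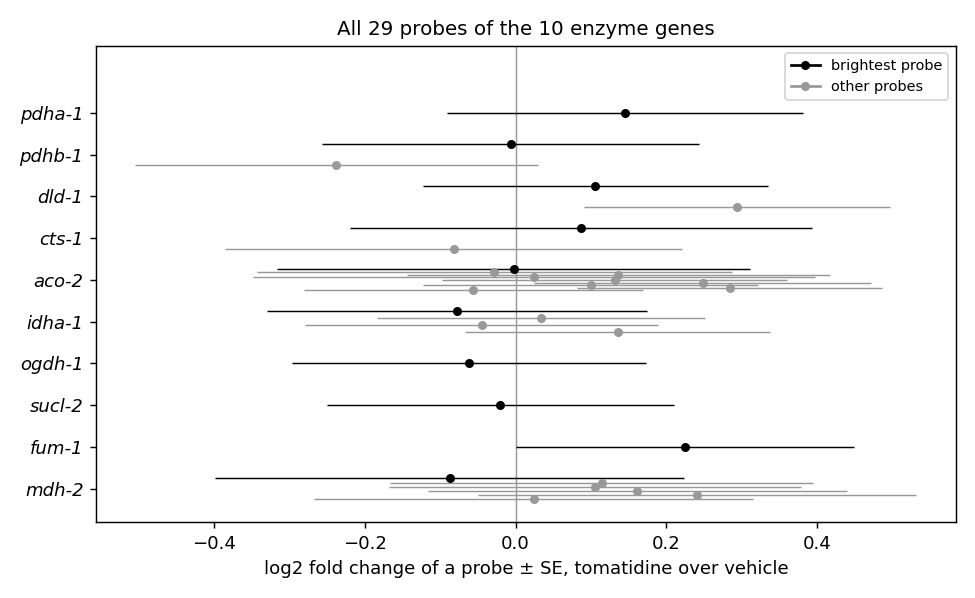
Log2 fold change of tomatidine over vehicle (horizontal axis) with its standard error from limma for each of the 29 probes, black for the brightest probe of a gene and grey for the others. All points lie between -0.24 and 0.29, and the 6 probes of *mdh-2* and 9 of *aco-2* fall on both sides of 0.

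The genes around these enzymes were counted in the same fit, from 5 lists of the regulators, remaining subunits, cytosolic counterparts, related complexes and carbon routes of the cycle. Of 38 genes listed, 37 were tested, since *dlat-1*, the E2 core of pyruvate dehydrogenase, had no matched probe. In limma 0 of 37 passed the test and 0 had an unadjusted p under 0.05, and 0 were called by z-ratio. Their median log2 fold change was 0.04, with 21 above 0, beside -0.03 over all genes tested.

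Pyruvate dehydrogenase is switched off by phosphorylation and on again by a phosphatase. *pdhk-2*, the kinase, had a log2 fold change of -0.17 (SE 0.21), and *pdp-1*, the phosphatase, had -0.0027 (SE 0.22). The value of *pdhk-2* was below 0 in 21 of 21 alternative settings, between -0.29 and -0.0057, without passing the test in any. It was -0.0057 with the slide as a block and -0.018 without vehicle replicate 2. Settings that change only the variance trend, the filter or the test left the -0.17 of *pdhk-2* as it was, and all settings reuse the same arrays. Within the slides its differences were -0.02 on that of tomatidine replicate 1 and 0.01 on the other.

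Of the other 13 TCA cycle subunits, 9 were above 0, with a median of 0.05. The brightest were *dlst-1*, the E2 of 2-oxoglutarate dehydrogenase, at -0.01 (SE 0.24), and *sdhd-1*, a membrane anchor of succinate dehydrogenase, at 0.01 (SE 0.24). The widest estimates, picked after their values were seen, were 0.33 for *idhg-2*, a γ subunit of isocitrate dehydrogenase (SE 0.28), and 0.29 for *sdha-1*, the flavoprotein of succinate dehydrogenase (SE 0.31). For both genes the 95% interval spanned 0.

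The 3 cytosolic counterparts had a median of 0.05. Cytosolic malate dehydrogenase *mdh-1* had 0.05 (SE 0.33), and the NADP-dependent isocitrate dehydrogenase *idh-1* had -0.14 (SE 0.27). Among 6 genes of the branched-chain keto acid dehydrogenase and glycine cleavage systems, which also pass electrons through E3, the median was 0.02. *bckd-1A*, the E1 α subunit of the branched-chain complex, had -0.03 (SE 0.21), and *gcsh-2*, an H protein of glycine cleavage, had 0.21 (SE 0.22).

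The 13 genes that carry carbon into or out of the cycle had a median of 0.04, with 7 above 0. *gdh-1*, glutamate dehydrogenase, had 0.08 (SE 0.29), and *acly-2*, an ATP citrate lyase, had 0.04 (SE 0.25). Mitochondrial pyruvate carrier *mpc-1* had the lowest value over the 37 genes, -0.20 (SE 0.20), and was picked for that. The same order of arrays was common among these genes. Tomatidine replicate 1 was the highest tomatidine array for 29 of the 37 and vehicle replicate 2 the highest vehicle array for 28. The share of all genes tested with this order was not counted. On these arrays, 66.3% and 76.5% of the 4058 genes in the intensity range of the enzyme genes lay above their own mean.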

How the data were processed

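The authors extracted each array with Agilent Feature Extraction 11.5.1.1 and deposited its processed signal, which is an intensity after background subtraction and detrending, and a value table of z-scores, a score per array. Median signals, also an intensity deposited by the authors, took the place of the mean signal, which the files do not hold, in 2 alternatives. Each array has 45220 spots, of which 1417 are controls. Control and outlier spots were left out, processed signals were taken to log2, turned into z-scores array by array and rescaled by the average SD (4.05). Probes needed a signal well above background on 3 or more arrays, and the brightest kept probe stood for its gene. Of 43603 probes, 34544 matched 1 gene by sequence name, accession or symbol.

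Groups were compared in limma 3.58.1 under R 4.3.3 (lmFit and eBayes with trend, two-sided, Benjamini-Hochberg over 14224 genes, 5 residual degrees of freedom). Single genes were also compared by the exact permutation test over 35 arrangements of the arrays. All 10 members are named with their values, and from each surrounding list the 2 genes with the highest mean signal, besides any past the test. The members and lists were chosen with earlier results of these data known. The sample numbers do not pair the arrays, but tags in the labels join tomatidine replicates 1, 2 and 3 with vehicle replicates 2, 3 and 4. Across genes, deviations from the group mean correlated within these pairs at 0.61, 0.19 and 0.51, which meets the limit of 0.1 set for pairing, although what the tags mean is not given in the sources used here. The value of 0.61 joins the arrays of high negative-control signal. Tomatidine replicates 2 and 3 correlated at 0.35 each with vehicle replicate 1, which has no tag. The other pairs without a shared tag lay between -0.53 and 0.12. The values reported take the arrays as unpaired, and blocking on the tags was tried as an alternative. Tissue markers were intestine, body wall muscle, pharynx muscle, hypodermis, neurons, germline and sperm, and 0 of the 41 tested passed limma's test or an unadjusted p of 0.05. Alternatives changed the scaling, the filter, the probe rule, the variance trend, the blocks and the arrays included. The number of arrays limits the precision.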

Additional observations from a re-analysis of the deposited data

How the results depend on the processing

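The count of enzyme genes past limma's test was 0 in each direction in all 21 alternative settings, and the lowest adjusted p of any of the 10 was 0.988. Among all genes, those higher with tomatidine numbered 11, and 6 without the variance trend, 5 with probes above background on all arrays, 7 without both arrays of high background (with 1 lower), 0 with the methods' general test, 23 with label-tag pairs as a replicate block and 28 with title numbers as a block (with 1 lower). Leaving out 1 array gave 5 to 11. The tag block changed no call of the 10 genes, with a median of -0.06. Title numbers pair no arrays, their deviations correlating at -0.53, -0.45 and -0.33, and with that block the median was -0.0026. The median of the 10 genes moved to 0.31 within the slide of tomatidine replicate 1, and ran from -0.12 to 0.19 when 1 array was left out. The mean deviation of the 10 genes on vehicle replicate 2 was 0.06 with the 75th percentile shift.

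Signs turned in 35 of 210 values of the 10 genes, and the cause was not tested. With the 75th percentile shift *pdhb-1* had 0.035, *aco-2* 0.035, *sucl-2* 0.019, *pdp-1* 0.038, *dlst-1* 0.043 and *bckd-1A* 0.019. With normexp and quantile normalization *idha-1* had 0.036, *pdp-1* 0.11, *dlst-1* 0.022, *sdhd-1* -0.11, *mdh-1* -0.060, *bckd-1A* 0.10, *gdh-1* -0.057 and *acly-2* -0.092. With the raw median signal *idha-1* had 0.011, *pdp-1* 0.10, *dlst-1* 0.067, *sdhd-1* -0.046, *bckd-1A* 0.077 and *acly-2* -0.025, and *dld-1* relative to the other 9 had -0.014. With the mean of all kept probes *aco-2* had 0.093, *idha-1* 0.011, *mdh-2* 0.093, *dlst-1* 0.055, *bckd-1A* 0.036 and *gdh-1* -0.054. Without both arrays of high background *pdhb-1* had 0.073, *cts-1* -0.024, *idha-1* 0.010, *sucl-2* 0.086, *sdhd-1* -0.12, *mdh-1* -0.0043, *gcsh-2* -0.048, *gdh-1* -0.014 and *acly-2* -0.034. With the tag pairs as a block *sdhd-1* had -0.099, *mdh-1* -0.13, *gdh-1* -0.034 and *acly-2* -0.016, and with title numbers *sucl-2* had 0.010 and *acly-2* -0.043. With the slide as a block *pdhb-1* had 0.076, *aco-2* 0.20, *idha-1* 0.065, *ogdh-1* 0.14, *mdh-2* 0.17, *pdp-1* 0.076, *dlst-1* 0.033 and *bckd-1A* 0.065.

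Leaving out 1 array at a time gave ranges of -0.13 to 0.20 for *pdhb-1*, -0.024 to 0.32 for *dld-1*, -0.11 to 0.31 for *cts-1*, -0.31 to 0.29 for *aco-2*, -0.18 to 0.11 for *idha-1*, -0.21 to 0.10 for *ogdh-1*, -0.12 to 0.13 for *sucl-2* and -0.38 to 0.14 for *mdh-2*. Among the surrounding genes they were -0.14 to 0.13 for *pdp-1*, -0.15 to 0.074 for *dlst-1*, -0.11 to 0.14 for *sdhd-1*, -0.22 to 0.26 for *mdh-1*, -0.31 to 0.036 for *idh-1*, -0.12 to 0.055 for *bckd-1A*, -0.11 to 0.20 for *gdh-1* and -0.13 to 0.15 for *acly-2*. The 95% intervals given above hold the changes that stay compatible with these 7 arrays in the unpaired fit, and they are not limits of detection. The signal of all 29 probes was well above background on every array.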
